A study of Mus musculus with 12 samples.

Results

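Transcripts of 49 genes that act in G2 phase and mitosis were measured in regulatory T cells (Treg cells), the CD4 T cells that carry the transcription factor Foxp3 and restrain immune responses. The genes were chosen by symbol as known members of the mitotic machinery. No measured value entered the rule, but the choice was made with earlier results of these data known. All 49 of them were among the 24502 genes of the deposited table, and all 49 passed the filter on low counts that kept 14827 genes for testing. The cells came from mice labelled wild type and from mice labelled Foxp3CreGpx4fl/fl, in which Cre recombinase driven by Foxp3 deletes loxP-flanked Gpx4 in Treg cells. These are called Gpx4-deficient here. The mice of every group were 11 weeks old. The cells of each genotype were either unstimulated or stimulated for 4 h through CD3 and CD28 by antibodies fixed to the plate (5 µg/ml) in medium with serum, with 3 libraries in each of the 4 groups. The labels do not say whether the wild-type mice carried Foxp3-driven Cre, whether a library came from 1 animal or from pooled animals, or how long the unstimulated cells were in culture. Stimulation and time in culture therefore cannot be told apart. The spread that enters the p-values is that between the samples deposited, and it may be technical. The library identifiers in the titles run in separate blocks for the 2 genotypes, and the labels do not say what these numbers stand for. Genotype and these blocks cannot be told apart in any genotype value below.

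A cell enters mitosis when CDK1 bound to cyclin A or cyclin B is activated, and it leaves mitosis when the anaphase-promoting complex (APC/C) marks the cyclins for degradation. In between, condensin and topoisomerase II compact and untangle the chromosomes, kinesins build the spindle, kinetochores attach chromosomes to it, and the chromosomal passenger complex corrects wrong attachments. The transcripts of these proteins accumulate in G2 phase, so that in a mixed population their level can follow the share of dividing cells. That share was not measured here. Their genes are bound by the MuvB complex with B-MYB and FOXM1 in dividing cells and are repressed by the DREAM form of MuvB in resting cells. Treg cells are known as a fraction of CD4 T cells that divides actively in the resting animal. The data are from bulk RNA, in which fewer cells of a kind and less RNA per cell cannot be told apart.

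Library totals ran from 24629230 to 31879267 expected counts, so that 1 CPM (a count scaled to library size by TMM, a normalization between libraries) stood for 24.6 to 32.4 counts. Gpx4 itself was at 142 to 172 CPM in unstimulated and at 69.2 to 107.5 CPM in stimulated wild-type libraries, against 3.34 to 12.3 CPM in all 6 Gpx4-deficient libraries, so each library matched its genotype label. All 7 Treg markers examined were present, with a summed level of 3161 to 6489 CPM. Markers of other cell types were low but not absent, and some of their summed levels differed by group. B and plasma cell markers summed to 80.3 to 134 CPM in unstimulated and 32.5 to 48.5 CPM in stimulated wild-type libraries, and to 71.9 to 131 CPM and 129 to 146 CPM in the respective Gpx4-deficient ones. Markers of monocytes, macrophages and dendritic cells summed to 135 to 233 CPM and 29.1 to 64.9 CPM in wild-type libraries (unstimulated, then stimulated) and to 118 to 153 CPM and 67.1 to 108 CPM in Gpx4-deficient ones. Erythroid and platelet markers were, in the same order, at 44.9 to 62.7, 7.93 to 23.5, 25.6 to 39.3 and 33.1 to 53.2 CPM. Neutrophil markers were at 47.2 to 171, 21.4 to 76.9, 1.30 to 8.08 and 4.88 to 57.3 CPM in that order, and CD8 and NK cell markers were at 9.84 to 38.5 CPM over all libraries. Several of these sums thus fell together with the mitotic genes between the wild-type states, and the neutrophil sum was lower in unstimulated Gpx4-deficient cells. Their part in the results below was not tested. The share of mitochondrially encoded counts was 1.18% to 1.94% in the 9 libraries other than stimulated Gpx4-deficient and 2.84% to 3.72% in the stimulated Gpx4-deficient ones, which also had the fewest genes with a count (13981 to 14917).

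Most of the promoters that could be examined held sequence elements that the choice of genes did not use. RefSeq promoter windows on GRCm38.p6, from 250 bases before to 50 bases after the annotated start, were matched for 41 of the 49 genes by symbol. The 8 genes without a window in the table were Ccna2, Aurkb, Incenp, Spc24, Tpx2, Kif20a, Smc4 and Cdca2. The windows were searched on both strands for the cell cycle genes homology region (CHR), the MuvB contact site, spelled TTTGAA or TTCGAA, and for the CCAAT box, the NF-Y site. An end base can belong to a match of both elements. A CHR was present in 34 of 41 genes (82.9%), against 21.7% of the 27025 genes of the promoter table. A CCAAT box was present in 33 genes (80.5%), against 41.1% of the table, and both elements together were in 30 genes (73.2%), against 8.61%. At least 1 CHR within the last 100 bases before the start or the 50 after it was found in 31 genes (75.6%), against 9.87%. Among the 30 matched genes whose unstimulated Gpx4-deficient libraries all lay below the wild-type ones, 25 held a CHR (83.3%), and among the other 11 matched genes 9 did (81.8%). A CCAAT box was present in 26 of the 30 (86.7%) and in 7 of the 11 (63.6%). Both elements were in 24 (80%) and 6 (54.5%) of these genes. With only 11 genes in the smaller set, these shares were not tested against each other.

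Shown here are the 150 bases upstream of the start for 6 genes whose levels are described below, chosen because they hold the elements in different arrangements. The windows are Cdk1 (chr10:69352913-69353062, minus strand), Top2a (chr11:99024190-99024339, minus strand), Mki67 (chr7:135716380-135716529, minus strand), Hmgb2 (chr8:57511693-57511842, plus strand), Cdc20 (chr4:118437344-118437493, minus strand) and Kif11 (chr19:37376232-37376381, plus strand). Each reads 5′ to 3′ on the strand of the gene, and capitals mark CHR and CCAAT matches, which read TTCAAA and ATTGG where the match is on the opposite strand.
Cdk1: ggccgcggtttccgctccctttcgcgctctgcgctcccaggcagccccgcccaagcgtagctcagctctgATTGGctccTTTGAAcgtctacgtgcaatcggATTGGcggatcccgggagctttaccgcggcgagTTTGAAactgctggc
Top2a: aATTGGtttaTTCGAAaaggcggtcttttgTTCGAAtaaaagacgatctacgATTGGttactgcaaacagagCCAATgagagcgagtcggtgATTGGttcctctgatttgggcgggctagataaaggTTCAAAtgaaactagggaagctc
Mki67: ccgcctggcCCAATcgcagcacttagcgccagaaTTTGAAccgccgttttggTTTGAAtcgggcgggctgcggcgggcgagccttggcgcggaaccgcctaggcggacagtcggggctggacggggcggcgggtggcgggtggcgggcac
Hmgb2: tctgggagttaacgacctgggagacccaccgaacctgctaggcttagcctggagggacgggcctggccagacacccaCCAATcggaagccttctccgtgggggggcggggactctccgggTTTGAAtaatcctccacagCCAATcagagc
Cdc20: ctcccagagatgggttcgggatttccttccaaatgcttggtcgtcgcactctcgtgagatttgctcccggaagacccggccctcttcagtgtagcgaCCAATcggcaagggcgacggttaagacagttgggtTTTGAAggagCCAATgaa
Kif11: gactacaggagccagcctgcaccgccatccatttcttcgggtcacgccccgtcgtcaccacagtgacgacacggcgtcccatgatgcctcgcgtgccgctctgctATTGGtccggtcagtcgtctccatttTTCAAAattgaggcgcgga
The Cdk1 window held CHR matches that began at -71 and -15 from the start and inverted CCAAT boxes at -80 and -48. In Cdc20 and Kif11 the CHR began at -18 and -19, and in Hmgb2 the nearer CHR began at -30. Top2a held 6 CCAAT boxes in its full window, more than the other 5. A match is a stretch of letters, and binding was not measured.

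The mitotic transcripts were most abundant in unstimulated wild-type cells: 45 of 49 genes had their highest group mean there, and no gene had its lowest mean there. The median level over the 49 genes was 63.8, 61.5 and 63.1 CPM in the 3 unstimulated wild-type libraries and 31.5, 28.4 and 37.1 CPM in the unstimulated Gpx4-deficient ones. After stimulation it was 33.6, 29.9 and 31.7 CPM in wild-type and 29.7, 19.6 and 24.4 CPM in Gpx4-deficient libraries. The 3 unstimulated wild-type libraries thus stood above the other 9. The summed level of the 49 transcripts was 4413 ± 259 CPM in unstimulated wild-type cells (SD, n = 3), which is 0.449% of all counts. In unstimulated Gpx4-deficient cells it was 2879 ± 222 CPM, or 65.2% of that mean, in stimulated wild-type cells 2465 ± 88.0 CPM (55.8%), and in stimulated Gpx4-deficient cells 2284 ± 185 CPM (51.8%). Smc4 and Hmgb2 alone made up 27.8% of the sum in unstimulated wild-type cells and 38.4% in unstimulated Gpx4-deficient cells. Without these 2 genes the unstimulated Gpx4-deficient sum was 55.7% of the wild-type one.

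**Figure D1:**
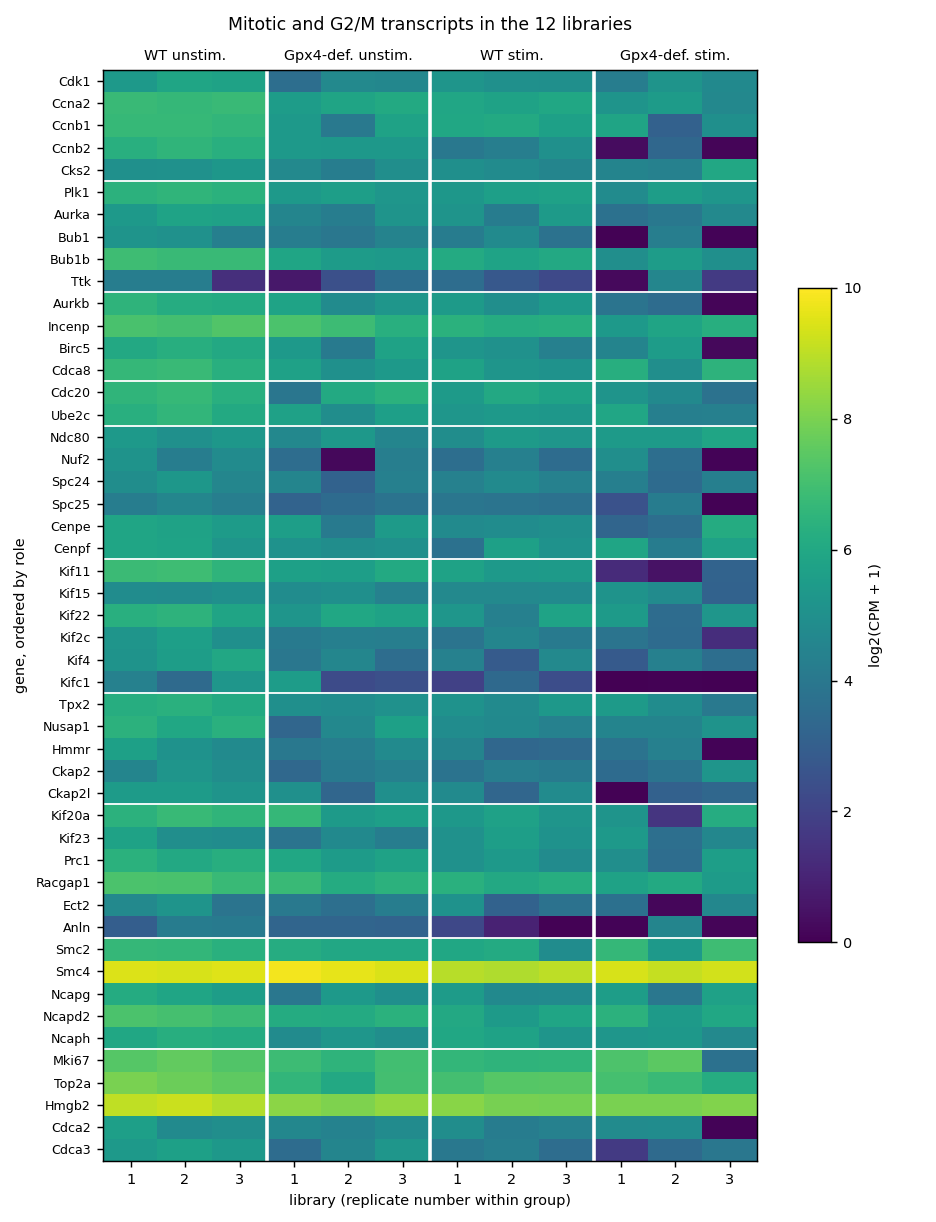
Level of each of the 49 genes (rows, ordered by role, with white lines between roles) in the 12 libraries (columns, by group and replicate), as log2(CPM + 1). The 3 unstimulated wild-type columns are the brightest in most rows, and Smc4 and Hmgb2 are the brightest rows. Most of the darkest cells lie in the 3 stimulated Gpx4-deficient columns, with a few elsewhere, such as Anln in stimulated wild-type replicate 3.

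The first comparison asked how loss of Gpx4 related to these transcripts in unstimulated Treg cells. Of 49 genes, 48 had a negative log2 fold change (Gpx4-deficient against wild type), Smc4 being the exception, with a median of -0.88 against 0.01 over all 14827 genes. No member passed an edgeR adjusted p under 0.05 (0 lower, 0 higher). Of all genes tested, 0.0135% were called lower and 0.0540% higher, so that the test called almost nothing here. At an unadjusted p under 0.05, 15 members were lower and 0 higher, while over all genes 421 were lower and 439 higher. In 34 of 49 genes every Gpx4-deficient library lay below every wild-type library and in 0 genes above it, where the shares over all genes were 9.89% and 8.42%. DESeq2 called 7 members lower (Ccna2, Plk1, Bub1b, Tpx2, Ncaph, Top2a and Hmgb2), limma-voom called 2 (Bub1b and Hmgb2), and edgeR on the 9 libraries other than stimulated Gpx4-deficient, an alternative added after the values were seen, called Bub1b. The shares of all genes called in these other fits are not given here, and the edgeR shares above do not apply to them.

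With stimulation the genotype values of the members lay on both sides of 0. The median log2 fold change (Gpx4-deficient against wild type, stimulated) was -0.31, with 33 of 49 genes negative, against 0.00 over all genes. The edgeR test called 2 members lower, the spindle motors Kifc1 and Kif11, and 0 higher, where 1.25% of all genes were called lower and 1.03% higher. Libraries did not overlap in 8 genes with Gpx4-deficient lower and in 2 with it higher (Smc4 and Ndc80), against 11.9% and 8.29% of all genes. Nothing is read from these counts about the members. The mean over the members of log2 CPM (prior count 2) was 4.93 ± 0.11 with Gpx4 and 3.83 ± 0.42 without it in the stimulated state, and 5.91 ± 0.13 and 4.98 ± 0.23 in the unstimulated one (SD, n = 3 each). The gap between these means was not smaller with stimulation, and the members near 0 described below enter it in full.

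In wild-type cells the stimulated state had lower levels of these transcripts. The median log2 fold change (stimulated against unstimulated) was -0.87 with 48 of 49 genes negative, against -0.03 over all genes. The edgeR test called 9 members lower and 0 higher: Hmgb2, Ncapd2, Smc4, Racgap1, Plk1, Bub1b, Ccna2, Tpx2 and Incenp. Over all genes 5.41% were called lower and 6.12% higher. Libraries did not overlap in 39 genes with stimulated lower and in 0 with it higher, against 22.1% and 19.8% of all genes. Hmgb2, Ncapd2 and Smc4 stayed called without any 1 of the 6 libraries compared. Leaving out any of them lowered the count of members called to 3, or to 4 without unstimulated replicate 3. The count was 27 in a fit of the 2 wild-type groups alone and 21 in the 9 libraries other than stimulated Gpx4-deficient. For these fits the shares of all genes called are not given, so their counts are not set against the shares above.

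In Gpx4-deficient cells the same comparison gave a median log2 fold change of -0.35 with 35 of 49 genes negative, against -0.02 over all genes. The edgeR test called 3 members lower (Kifc1, Kif11 and Incenp) and 0 higher, where 7.83% of all genes were called lower and 7.45% higher. Libraries did not overlap in 9 genes with stimulated lower and in 1 (Ndc80) with it higher, against 16.9% and 12.9% of all genes, and nothing is read from these counts about the members either. The count of members called was 8 without stimulated replicate 2 and 6 without stimulated replicate 3. Cdca8 was called higher in the first of these fits, at a log2 fold change of 0.99, and all other calls in both were lower. The shares of all genes called in these fits are not given here. The 4 comparisons share groups with each other, so their values are given side by side and not set against each other beyond the interaction test.

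The interaction, the response to stimulation without Gpx4 minus the response with it, was positive in 40 of 49 genes, with a median of 0.49 on the log2 scale against -0.01 over all genes. No member passed in either direction by edgeR (0 lower, 0 higher), where 0.175% of all genes were called lower and 0.0270% higher. At an unadjusted p under 0.05, 6 members were positive (Cdca8, Tpx2, Nusap1, Smc2, Ncapd2 and Hmgb2) and 2 were negative (Kif11 and Kifc1). DESeq2 called 3 (Cdca8 and Hmgb2 positive, Kifc1 negative). Without stimulated Gpx4-deficient replicate 2 edgeR called Ccnb2 (-5.79) and Bub1 (-7.62) in the negative direction and Cdca8 (2.23) in the positive one. Without replicate 3 of that group it called Kif11 (-4.79) in the negative direction and Mki67 (1.43) in the positive one. By the edgeR values most members thus had a less negative or a positive response in Gpx4-deficient cells, without any of them passing with all 12 libraries. The count of negative members ran from 8 to 17 without 1 library and was also larger in limma-voom. Mean log2 CPM over the members went from 4.98 to 3.83 with stimulation in Gpx4-deficient cells and from 5.91 to 4.93 in wild-type cells. The members near 0 enter this mean in full.

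**Figure D2:**
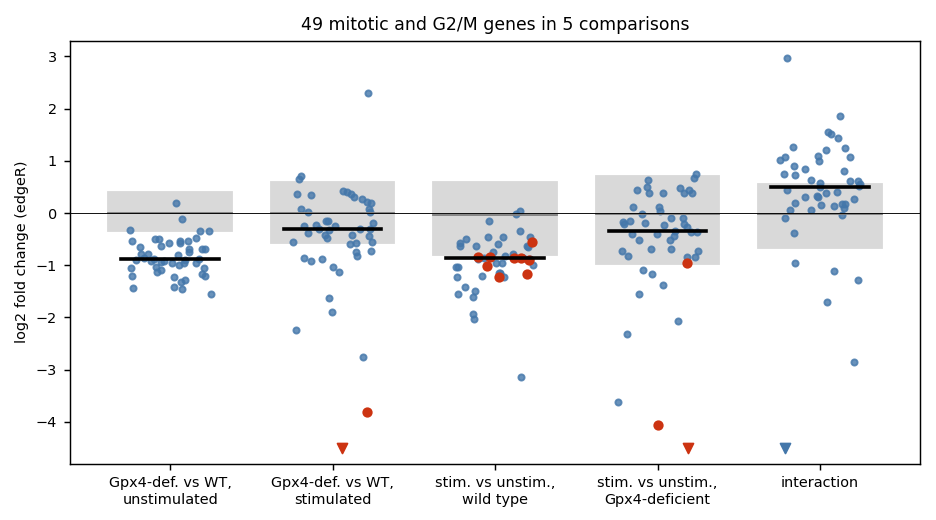
Log2 fold changes of the 49 genes (points, spread sideways to separate them) in the 4 comparisons and the interaction, with the members' median (black line), called members in red, and the lower to upper quartile of all 14827 tested genes as a grey box with its median. The medians lie at -0.88, -0.31, -0.87, -0.35 and 0.49, and triangles at the lower edge mark Kifc1, whose value lies beyond the axis.

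CDK1, its cyclins and CKS2, the small protein that binds CDK complexes, form the switch that starts mitosis. Cdk1 was at 40.2, 57.2 and 52.9 CPM in unstimulated wild-type libraries and at 11.2, 25.4 and 23.8 CPM in unstimulated Gpx4-deficient ones, which did not overlap. With stimulation it was at 36.0, 31.2 and 30.4 CPM in wild-type and 17.8, 35.0 and 26.2 CPM in Gpx4-deficient libraries, which overlapped. The unstimulated difference, a log2 fold change of -1.31 (SE 0.37, edgeR adjusted p = 0.467), did not pass over all genes. Ccnb1, the cyclin that brings CDK1 to its peak activity, was at 103, 102 and 94.5 CPM in unstimulated wild-type and at 41.0, 15.5 and 53.7 CPM in unstimulated Gpx4-deficient libraries, where replicate 2 was the lowest. In stimulated libraries Ccnb1 was at 61.6, 66.8 and 50.7 CPM (wild type) and at 57.0, 7.59 and 30.3 CPM (Gpx4-deficient), again with replicate 2 lowest. A processed pseudogene, Ccnb1-ps, matches 51.7% of the Ccnb1 transcript at 99.2% identity, and although it was at 0.426 CPM or less, reads that match both could have been split.

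Ccna2, the cyclin that acts from S phase to early mitosis, was the most evenly measured of the cyclins. Its level in unstimulated libraries was 108, 101 and 107 CPM (wild type) and 44.7, 56.6 and 65.8 CPM (Gpx4-deficient). In stimulated libraries it was 59.3, 53.4 and 61.1 CPM (wild type) and 35.1, 43.6 and 24.4 CPM (Gpx4-deficient). The 2 genotypes did not overlap in either state. Ccna2 fell with stimulation in wild-type cells, by a log2 fold change of -0.87 (SE 0.24, edgeR adjusted p = 0.0351), a call that was lost without any 1 of the 6 libraries and without the filter. The genotype differences were -0.92 (SE 0.24, edgeR adjusted p = 0.332) unstimulated and -0.75 (SE 0.24, edgeR adjusted p = 0.131) stimulated, neither past the threshold in edgeR. Ccnb2, the cyclin B of the Golgi and cytoplasm, was at 77.2 to 91.8 CPM, 38.9 to 40.0 CPM and 15.0 to 31.7 CPM in the groups other than stimulated Gpx4-deficient, and at 0.251, 9.20 and 0.113 CPM there. Cks2 ranged from 17.8 to 62.1 CPM and its stimulated libraries overlapped between genotypes.

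The summed level of the mitotic kinases was also highest in unstimulated wild-type cells. Bub1b, which encodes the checkpoint protein BubR1 that holds back anaphase until all kinetochores are attached, was at 117, 109 and 109.6 CPM in unstimulated wild-type and at 58.6, 44.0 and 41.8 CPM in unstimulated Gpx4-deficient libraries. With stimulation Bub1b was at 67.8, 54.9 and 64.8 CPM in wild-type and 29.7, 45.2 and 30.9 CPM in Gpx4-deficient libraries. The genotypes did not overlap, and the log2 fold changes (unstimulated, then stimulated) were -1.22 (SE 0.23, edgeR adjusted p = 0.132) and -0.83 (SE 0.23, edgeR adjusted p = 0.0864). The stimulation change in wild-type cells, -0.84 (SE 0.23, edgeR adjusted p = 0.031), was called with all 12 libraries, but without any 1 of the 6 compared it was not.

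Plk1, the polo-like kinase that drives mitotic entry and spindle assembly, was at 84.0, 91.3 and 82.4 CPM in unstimulated wild-type and at 40.0, 47.5 and 37.3 CPM in unstimulated Gpx4-deficient libraries, which did not overlap. Stimulated libraries were at 37.9, 48.6 and 51.4 CPM (wild type) and 27.6, 46.3 and 37.1 CPM (Gpx4-deficient), and these overlapped. Plk1 fell with stimulation in wild-type cells by a log2 fold change of -0.90 (SE 0.24, edgeR adjusted p = 0.031), a call that was likewise lost without any 1 of the 6 libraries and without the filter. Aurka, the centrosome kinase, ranged from 40.9 to 55.2 CPM in unstimulated wild-type libraries and from 12.2 to 42.3 CPM in the other 9. Bub1 and Ttk, checkpoint kinases, were the least evenly measured of the group, with Bub1 at 0.0359, 18.1 and 0.0754 CPM and Ttk at 0.180, 23.4 and 2.26 CPM in stimulated Gpx4-deficient libraries.

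The chromosomal passenger complex consists of the kinase Aurora B (Aurkb) and its partners Incenp, survivin (Birc5) and borealin (Cdca8). Incenp, the scaffold, was at 138, 127 and 153 CPM in unstimulated wild-type and at 142, 114 and 79.2 CPM in unstimulated Gpx4-deficient libraries, which overlapped. With stimulation it was at 83.5, 71.7 and 75.8 CPM in wild-type and 40.7, 56.6 and 75.4 CPM in Gpx4-deficient libraries. It fell with stimulation in both genotypes, with log2 fold changes of -0.86 (SE 0.25, edgeR adjusted p = 0.0488) in wild-type and -0.95 (SE 0.25, edgeR adjusted p = 0.0246) in Gpx4-deficient cells. The first call was lost without any 1 of its 6 libraries, and the second was lost in the fit of the 2 groups alone and, of the fits that left out a library, kept only without unstimulated replicate 3 or stimulated replicate 3. The summed level of the 4 genes was 380.3 ± 13.9 CPM (wild type) and 230.0 ± 53.3 CPM (Gpx4-deficient) without stimulation, and 185 ± 27.2 CPM and 152 ± 10.6 CPM with it (SD, n = 3 each). Cdca8 had the second largest positive interaction of all members, at 1.87 (SE 0.53, edgeR adjusted p = 0.309), its stimulated Gpx4-deficient libraries being at 77.0, 29.4 and 87.2 CPM against 53.8, 36.0 and 32.9 CPM in stimulated wild-type ones. Aurkb was at 13.2, 10.6 and 0.113 CPM in stimulated Gpx4-deficient libraries, below the 29.9 to 42.7 CPM of stimulated wild-type ones.

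Cdc20, the activator of the APC/C at anaphase, and Ube2c, the conjugating enzyme that works with it, end mitosis. Cdc20 was at 93.1, 103 and 79.2 CPM in unstimulated wild-type and at 14.4, 67.3 and 82.2 CPM in unstimulated Gpx4-deficient libraries, where replicate 1 was far below the other two. Stimulated libraries were at 43.1, 63.7 and 53.3 CPM (wild type) and 34.8, 26.1 and 12.5 CPM (Gpx4-deficient), without overlap, for a log2 fold change of -1.12 (SE 0.53, edgeR adjusted p = 0.287). Ube2c was at 67.0 to 94.0 CPM in unstimulated wild-type libraries and at 18.7 to 60.3 CPM in the other 9, and none of its comparisons passed. About 22.8% of the Ube2c exons overlap those of Tnnc2 on the opposite strand, and the labels do not say whether counting used the strand.

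The kinetochore genes had medians near or above 0 in the 2 comparisons with stimulated Gpx4-deficient cells, 0.05 (genotype, stimulated) and 0.21 (stimulation, Gpx4-deficient) on the log2 scale, and all 6 interaction values were positive. Cenpf, a large protein of the outer kinetochore and the member of the group with the most counts, was at 57.7, 54.8 and 35.8 CPM in unstimulated wild-type and 33.5, 29.2 and 31.2 CPM in unstimulated Gpx4-deficient libraries. In stimulated libraries Cenpf was at 12.4, 49.8 and 33.0 CPM (wild type) and 58.1, 17.5 and 52.3 CPM (Gpx4-deficient), with 1 low library in each group. Ndc80, part of the complex that grips microtubules, was at 29.2, 42.9 and 37.0 CPM in stimulated wild-type and at 43.2, 43.1 and 58.0 CPM in stimulated Gpx4-deficient libraries. It is thus among the 2 members with every stimulated Gpx4-deficient library above every stimulated wild-type one, at a log2 fold change of 0.40 (SE 0.30, edgeR adjusted p = 0.524), which did not pass. Its partners in that complex did not share this order: Nuf2 was at 29.9, 11.4 and 0.0754 CPM, Spc24 at 19.0, 10.4 and 19.0 CPM and Spc25 at 4.78, 17.1 and 0.0377 CPM in those libraries. The group as a whole summed to 214 ± 26.2 CPM (wild type) and 133 ± 25.8 CPM (Gpx4-deficient) without stimulation, and to 146 ± 32.9 CPM and 158 ± 44.6 CPM with it (SD, n = 3 each).

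The mitotic kinesins held both calls of the stimulated genotype comparison. Kif11 (Eg5), the motor that pushes the spindle poles apart, lies at chr19:37376403-37421859 on the plus strand of GRCm38. It was at 111, 117 and 90.2 CPM in unstimulated wild-type and at 50.9, 47.6 and 66.0 CPM in unstimulated Gpx4-deficient libraries, and at 52.9, 41.1 and 43.2 CPM in stimulated wild-type ones. In stimulated Gpx4-deficient libraries Kif11 was at 1.33, 0.401 and 8.11 CPM, below all the other 9. Its log2 fold changes were -3.81 (SE 0.79, edgeR adjusted p = 0.0311) against stimulated wild-type and -4.07 (SE 0.80, edgeR adjusted p = 0.00486) against unstimulated Gpx4-deficient cells. The genotype call was lost in DESeq2, in the fit of the 2 stimulated groups alone and without any 1 of the stimulated wild-type libraries, and the stimulation call was lost in DESeq2 and in the fit of the 2 Gpx4-deficient groups alone.

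Kifc1 (HSET), a minus-end motor that gathers spindle poles, lies at chr17:33875659-33890661 on the minus strand. It was at 19.9, 10.1 and 37.5 CPM in unstimulated wild-type, at 45.0, 3.88 and 4.42 CPM in unstimulated Gpx4-deficient and at 2.85, 9.62 and 4.08 CPM in stimulated wild-type libraries. In the 3 stimulated Gpx4-deficient libraries together it had 1 count, against 420 in stimulated wild-type and 1497 in unstimulated Gpx4-deficient libraries. Scaled to library size, the ratio was 485 with a 95% exact counting interval of 86.5 to 19185 in the stimulated genotype comparison and 1604 with an interval of 287 to 63404 for stimulation. These intervals cover counting error only, and the unstimulated Gpx4-deficient replicates themselves ran from 3.88 to 45.0 CPM. Both calls passed in edgeR (adjusted p = 0.0159 and 0.00111) and held without any 1 library of their comparison, but the genotype call was lost in limma-voom and in the fit of the 2 stimulated groups alone. Kifc1 has a near copy, Kifc5b, on the same chromosome, which aligned over 2297 of 2357 transcript bases at 96.8% identity, so reads could have been divided between them and the call is uncertain. Kifc5b was at 3.34, 0.401 and 0.0377 CPM in stimulated Gpx4-deficient libraries, and the sum of both genes was 1.27 ± 1.80 CPM there against 6.86 ± 2.83 CPM in stimulated wild-type and 24.2 ± 30.9 CPM in unstimulated Gpx4-deficient cells (SD, n = 3 each).

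The other 4 kinesins did not pass in any comparison. Kif15, the kinesin that can stand in for Kif11, was at 27.3 to 30.2 CPM in unstimulated and at 25.3 to 26.4 CPM in stimulated wild-type libraries, and at 33.9, 27.6 and 7.84 CPM in stimulated Gpx4-deficient ones. Kif2c, which takes microtubules apart at kinetochores, was at 30.7 to 49.4 CPM in unstimulated wild-type libraries and at 1.51 to 22.2 CPM in the other 9, without overlap. Kif4, the chromokinesin, was at 34.5 to 63.1 CPM in unstimulated wild-type libraries and at 6.14 to 24.9 CPM in the other 9, again without overlap. Kif22, a second chromokinesin, ranged from 56.2 to 87.3 CPM and from 10.5 to 60.7 CPM in the same 2 sets of libraries.

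**Figure D3:**
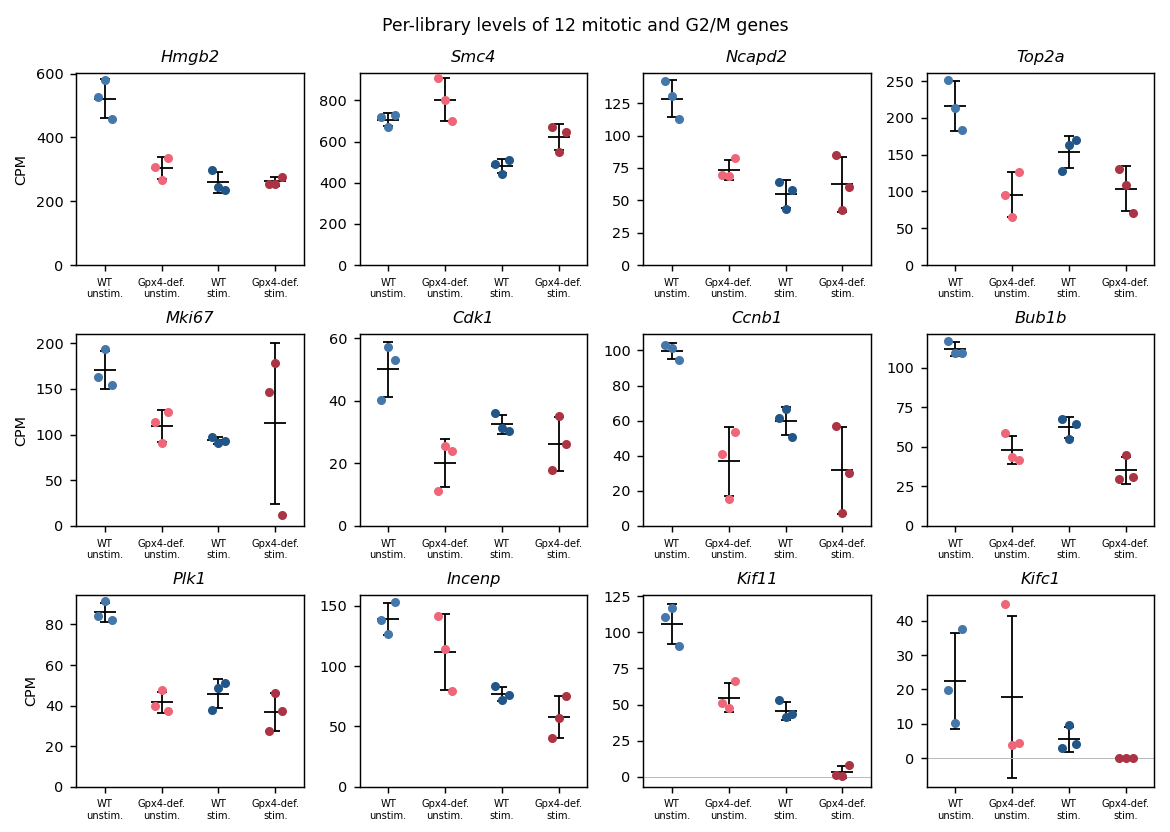
Level (CPM, linear axis) of 12 genes in each library (points, by group, replicates 1 to 3 from left to right), with the group mean and SD (black). Hmgb2, Ncapd2, Plk1 and Bub1b are highest in unstimulated wild-type libraries, and Kif11 and Kifc1 lie near 0 in stimulated Gpx4-deficient libraries. Smc4 has its highest group mean in unstimulated Gpx4-deficient cells, where its libraries overlap the unstimulated wild-type ones.

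Of the spindle assembly factors, Tpx2, which activates Aurora A on microtubules, was at 74.5, 80.5 and 66.1 CPM in unstimulated wild-type and at 30.2, 28.4 and 32.8 CPM in unstimulated Gpx4-deficient libraries. With stimulation it was at 33.6, 26.3 and 38.8 CPM in wild-type and 42.5, 28.2 and 15.3 CPM in Gpx4-deficient libraries, which overlapped. Tpx2 fell with stimulation in wild-type cells, by a log2 fold change of -1.16 (SE 0.34, edgeR adjusted p = 0.0464), a call lost without any 1 of the 6 libraries and without the filter. All 5 genes of this group (Tpx2, Nusap1, Hmmr, Ckap2 and Ckap2l) had interaction values between -1.11 and 1.52, with 4 positive. Nusap1, which bundles spindle microtubules, was at 61.5 to 83.8 CPM in unstimulated wild-type libraries and at 8.86 to 49.8 CPM in the other 9.

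The central spindle and cytokinesis genes divide the cell after the chromosomes have parted. Racgap1, a subunit of centralspindlin, was at 144, 138 and 108 CPM in unstimulated wild-type and 108, 70.0 and 84.9 CPM in unstimulated Gpx4-deficient libraries, and at 81.3, 63.8 and 73.1 CPM and 53.8, 65.8 and 44.2 CPM in the respective stimulated ones. It fell with stimulation in wild-type cells by a log2 fold change of -0.84 (SE 0.22, edgeR adjusted p = 0.0295), a call kept in 1 of the 6 fits that left out a library (without unstimulated replicate 3). Kif23, its partner in centralspindlin, was the only member with a positive value in that comparison, 0.04 (SE 0.47, edgeR adjusted p = 0.981), with libraries at 53.4, 29.6 and 28.0 CPM unstimulated and 32.7, 47.9 and 33.3 CPM stimulated. Prc1, the bundler of antiparallel microtubules, was at 64.0 to 82.1 CPM in unstimulated wild-type libraries and at 11.0 to 61.9 CPM in the other 9. Anln (anillin) was the scarcest member, at 0.0404 to 22.2 CPM over the 12 libraries, and in stimulated Gpx4-deficient cells its level rested on replicate 2 alone (0.0718, 22.2 and 0.113 CPM). Kif20a shares 29.3% of its exon bases with Cdc23 on the opposite strand.

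Condensin held the 1 member with a positive genotype value in unstimulated cells. Smc4, the core ATPase subunit of both condensins and the member with the most counts, was at 717, 669 and 729.9 CPM in unstimulated wild-type and at 908, 799 and 699 CPM in unstimulated Gpx4-deficient libraries, which overlapped. Stimulated libraries were at 490.1, 444 and 512 CPM (wild type) and 673, 551 and 644 CPM (Gpx4-deficient), without overlap. Smc4 fell with stimulation in wild-type cells by a log2 fold change of -0.55 (SE 0.12, edgeR adjusted p = 0.00799). Its genotype difference was 0.19 (SE 0.12, edgeR adjusted p = 1) unstimulated and 0.37 (SE 0.12, edgeR adjusted p = 0.128) stimulated, neither past the threshold in edgeR, though DESeq2 called the latter.

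Ncapd2, a regulatory subunit of condensin I, was at 142, 131 and 113 CPM in unstimulated wild-type and at 69.4, 68.5 and 82.6 CPM in unstimulated Gpx4-deficient libraries, which did not overlap. Stimulated libraries were at 63.8, 43.2 and 57.6 CPM (wild type) and 84.8, 42.5 and 60.4 CPM (Gpx4-deficient), which overlapped. Its fall with stimulation in wild-type cells was -1.23 (SE 0.26, edgeR adjusted p = 0.0076), and the interaction was 0.99 (SE 0.36, edgeR adjusted p = 0.448). Smc2, the partner of Smc4 in every condensin, was at 80.7 to 101 CPM in unstimulated wild-type, 62.4 to 72.0 CPM in unstimulated Gpx4-deficient, 27.9 to 68.3 CPM in stimulated wild-type and 41.4 to 117 CPM in stimulated Gpx4-deficient libraries. Ncapg and Ncaph had negative unstimulated genotype values, of -1.04 and -1.12 on the log2 scale, that did not pass.

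The remaining 5 genes encode chromosome and chromatin proteins, with the proliferation marker Mki67 (Ki-67) and topoisomerase II alpha (Top2a) among them. Mki67 was at 163, 194 and 155 CPM in unstimulated wild-type, 114, 90.5 and 125 CPM in unstimulated Gpx4-deficient and 97.8, 90.8 and 92.5 CPM in stimulated wild-type libraries. In stimulated Gpx4-deficient libraries Mki67 was at 147, 178 and 12.4 CPM, so that replicate 3 lay far below every other library and the other two near the unstimulated wild-type range. None of its comparisons passed, and the stimulated genotype value of 0.26 (SE 0.61, edgeR adjusted p = 0.885) turned into a call of a higher level without that replicate. Top2a was at 251, 214 and 183 CPM in unstimulated wild-type and 95.5, 64.9 and 127 CPM in unstimulated Gpx4-deficient libraries, without overlap, for a log2 fold change of -1.18 (SE 0.27, edgeR adjusted p = 0.265). In stimulated libraries Top2a was at 128, 163 and 169.6 CPM (wild type) and 131, 109 and 71.2 CPM (Gpx4-deficient), which overlapped.

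Hmgb2, a DNA-bending protein of dividing cells, was at 527, 581 and 458 CPM in unstimulated wild-type and at 309, 266 and 336 CPM in unstimulated Gpx4-deficient libraries, and at 297, 245 and 237 CPM and 254, 255 and 277 CPM in the respective stimulated ones. The unstimulated wild-type libraries stood above all the other 9. Hmgb2 fell with stimulation in wild-type cells by a log2 fold change of -1.01 (SE 0.13, edgeR adjusted p = 0.000317), while the value in Gpx4-deficient cells was -0.21 (SE 0.13, edgeR adjusted p = 0.316). The unstimulated genotype difference of -0.78 (SE 0.13, edgeR adjusted p = 0.087) and the interaction of 0.80 (SE 0.19, edgeR adjusted p = 0.171) did not pass in edgeR, and both were called by DESeq2. Processed pseudogenes match up to 24.1% of the Hmgb2 transcript, so a part of its reads could have been split.

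**Figure D4:**
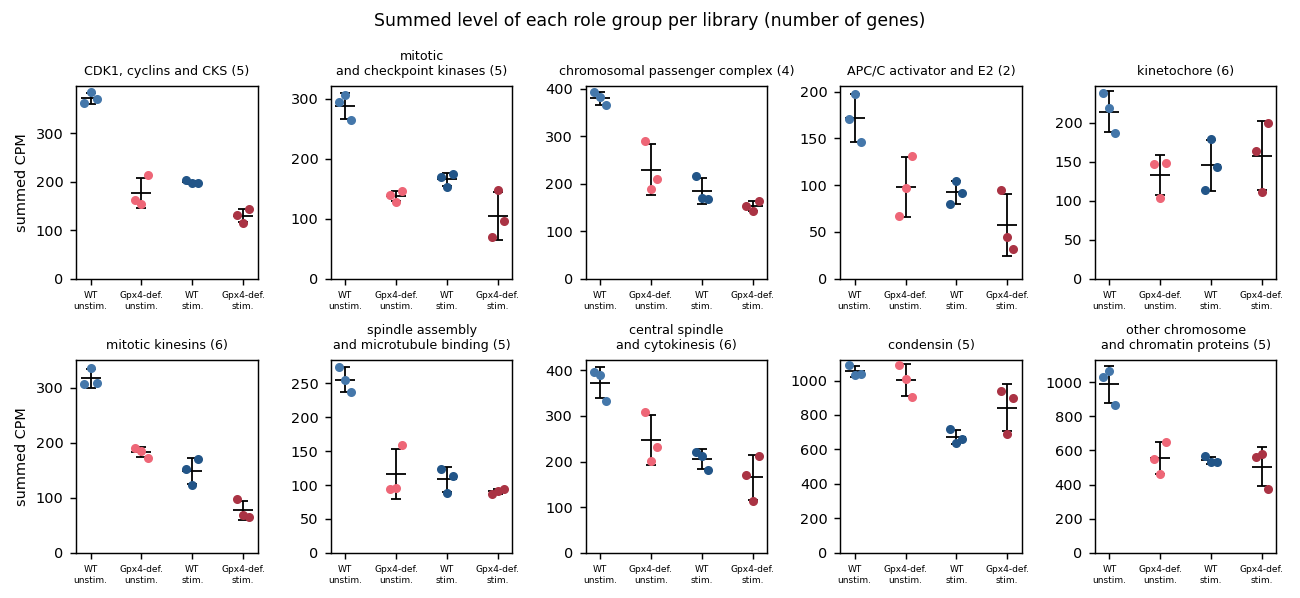
Summed level (CPM) of each of the 10 role groups in every library (points, by group) with the mean and SD (black) and the number of genes in brackets. In 8 of the 10 groups the unstimulated wild-type libraries lie above all others, and the exceptions are the kinetochore group and condensin, which Smc4 dominates.

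Per kilobase of exon in unstimulated wild-type cells, Hmgb2 (173.8 CPM per kb) and Smc4 (135 CPM per kb) stood first, followed by Ccnb2 (53.9), Cdc20 (49.2) and Cks2 (49.1). In stimulated Gpx4-deficient cells the level of Smc4 (119.5 CPM per kb) was above that of Hmgb2 (87.3), Cks2 was at 49.8 and Ccnb2 at 2.08 CPM per kb. Anln was last in unstimulated wild-type cells, at 1.48 CPM per kb.

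Single members were near absence in stimulated Gpx4-deficient libraries. In these, 6, 3 and 10 of the 49 genes were under 1 CPM in replicates 1 to 3, while the other 9 libraries had 0 or 1 such gene. The genes differed between replicates: 14 members were under 1 CPM in at least 1 of the 3 libraries, of which 10 in 1 library, 3 (Ccnb2, Bub1 and Anln) in 2 and only Kifc1 in all 3. Birc5, the survivin gene, was at 21.8, 45.2 and 0.151 CPM, and Ect2, the activator of RhoA in cytokinesis, at 11.8, 0.123 and 23.7 CPM. Hmmr, which binds spindle microtubules, was at 13.0, 19.6 and 0.0754 CPM, so that in each of the 3 genes 1 library near 0 stood beside libraries within or above the range of the stimulated wild-type ones. The same held for Nuf2 and Cdca2. The rest of the 10 genes differed: the remaining libraries of Kif11 and Aurkb, and 1 remaining library each of Ttk, Spc25 and Ckap2l, lay below the stimulated wild-type range.

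Genes of other functions showed this too, to a smaller extent. Of the 4918 tested genes whose mean over the unstimulated libraries was between 20 and 100 CPM, 2.81%, 1.99% and 6.99% were under 1 CPM in stimulated Gpx4-deficient replicates 1 to 3. Of the 37 members in that range the shares were 10.8%, 5.41% and 18.9% (4, 2 and 7 genes), and in the other 9 libraries 0 of them were under 1 CPM. The median SD of log2 CPM between the 3 replicates was 0.96 over the members in stimulated Gpx4-deficient libraries, against 0.22 and 0.28 in unstimulated and stimulated wild-type ones and 0.40 in unstimulated Gpx4-deficient ones. Over all tested genes it was 0.68 in that group, against 0.33, 0.39 and 0.48. All tested genes include scarcer ones than the members. Over the 8752 genes with a mean of 10 CPM or more in the unstimulated libraries, 48 members among them, it was 0.53, against 0.21, 0.26 and 0.31. The members moved together little from library to library within a group. Over the 12 libraries the median correlation of their deviations from the group means was -0.02 between pairs of members and 0.0049 between members and other genes, and in the 9 libraries other than stimulated Gpx4-deficient it was 0.08 and 0.02, with 56.2% of member pairs positive. Since the fit shares its estimate of spread between the groups, the spread of the stimulated Gpx4-deficient libraries enters the tests of the other groups too. These libraries were also those with the most mitochondrially encoded counts and the fewest genes with a count, and the part of these features in the results was not tested.

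**Figure D5:**
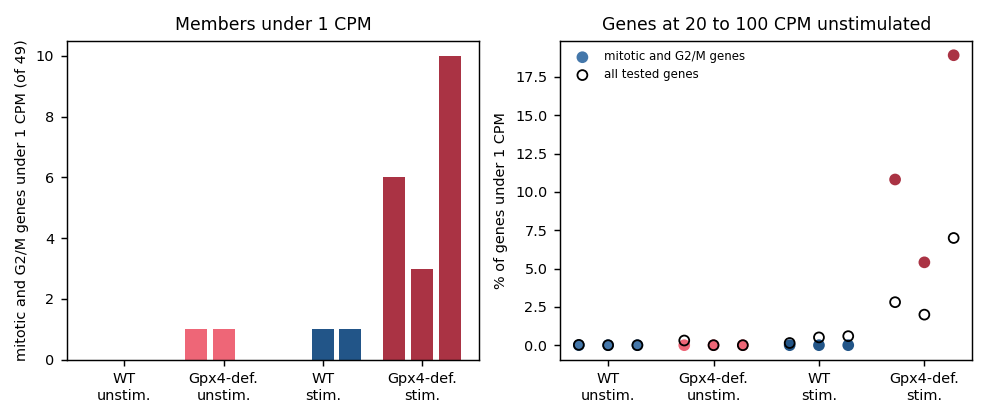
Left, number of the 49 genes under 1 CPM in each library (bars). Right, share under 1 CPM in each library among genes with a mean of 20 to 100 CPM in unstimulated libraries, for the 37 members (filled) and all 4918 tested genes (open). The 3 stimulated Gpx4-deficient libraries hold 6, 3 and 10 members under 1 CPM, and the others 0 or 1.

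The regulators that act on mitotic genes were compared with the same tests, from lists chosen by function, with earlier results of these data known. Of 17 regulators of the MuvB and FOXM1 program, 0 passed between genotypes in either state, with medians of -0.21 unstimulated and 0.03 stimulated. E2f2, an activating E2F factor, fell with stimulation in both genotypes, from 65.1, 55.1 and 59.9 CPM to 12.0, 12.4 and 4.04 CPM in wild-type libraries and from 66.2, 37.3 and 49.7 CPM to 6.46, 7.50 and 19.0 CPM in Gpx4-deficient ones. Its log2 fold changes were -2.66 (SE 0.52, edgeR adjusted p = 0.00516) and -2.21 (SE 0.51, edgeR adjusted p = 0.0125). Tfdp1, the partner of E2F proteins, rose with stimulation in Gpx4-deficient cells (0.75 (SE 0.17, edgeR adjusted p = 0.01) on the log2 scale).

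Of 23 other regulators of mitotic entry and exit, 0 passed between unstimulated genotypes and 2 fell in the stimulated comparison, where 1.25% of all genes were called lower. These were Cdc25c, a phosphatase that activates CDK1, and Cdc16, a subunit of the APC/C. Cdc25c was at 3.46, 5.79 and 1.33 CPM in stimulated wild-type and at 0.0718, 0 and 0.0754 CPM in stimulated Gpx4-deficient libraries (edgeR adjusted p = 0.0237). With stimulation in wild-type cells 2 fell and 1 rose, against 5.41% and 6.12% of all genes, and in Gpx4-deficient cells 3 fell and 0 rose, against 7.83% and 7.45%. Counts this small are not read as set apart from those shares. Cdc25b, the phosphatase that triggers the first CDK1 activation, fell in both, with log2 fold changes of -2.27 (SE 0.28, edgeR adjusted p = 0.000188) and -1.55 (SE 0.27, edgeR adjusted p = 0.00241).

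Of 36 tested spindle and kinetochore genes outside the 49, 0 passed between unstimulated genotypes (28 negative, median -0.48), and 4 fell in the stimulated comparison: Nsl1, Ska3, Kntc1 and Depdc1a, where 1.25% of all genes were called lower. Nsl1, a subunit of the MIS12 kinetochore complex, was at 9.52, 11.6 and 16.8 CPM in stimulated wild-type and at 0.144, 0.154 and 0.0377 CPM in stimulated Gpx4-deficient libraries. The interaction for Nsl1 was also called, in the negative direction (edgeR adjusted p = 0.0204). Zwint, a kinetochore protein, rose with stimulation in both genotypes, by log2 fold changes of 0.52 (SE 0.15, edgeR adjusted p = 0.0396) and 0.61 (SE 0.15, edgeR adjusted p = 0.0143). Of 11 cohesin genes, 1 rose in stimulated Gpx4-deficient against stimulated wild-type cells, the cohesin loader Nipbl (1.01 (SE 0.19, edgeR adjusted p = 0.0195) on the log2 scale), and 0 fell, where 1.03% of all genes were called higher. Unstimulated cohesin genes had a median of 0.10 between genotypes, against -0.88 for the 49 mitotic genes.

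Between unstimulated genotypes the log2 fold changes of all 30 S phase genes were below 0, with a median of -0.73 against 0.01 over all genes, and 0 passed in edgeR (12 at an unadjusted p under 0.05, all lower). In 19 of the 30 every Gpx4-deficient library lay below every wild-type one, against 9.89% of all genes. In the stimulated genotype comparison 4 of 30 fell, where 1.25% of all genes did. With stimulation 6 fell in wild-type and 9 in Gpx4-deficient cells, against 5.41% and 7.83% of all genes, and 0 rose in any of these comparisons. Mcm3, a subunit of the replicative helicase, was at 226, 195 and 189 CPM in stimulated wild-type and 95.2, 56.4 and 55.4 CPM in stimulated Gpx4-deficient libraries, a log2 fold change of -1.56 (SE 0.20, edgeR adjusted p = 0.00239). Mcm7 fell with stimulation in both genotypes, with log2 fold changes of -1.32 (SE 0.24, edgeR adjusted p = 0.00305) and -0.87 (SE 0.24, edgeR adjusted p = 0.0282).

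Among 13 G1 regulators, 0 passed between genotypes in either state, and those that passed with stimulation moved in both directions. Myc, the growth transcription factor, rose by log2 fold changes of 2.31 (SE 0.11, edgeR adjusted p = 1.22e-07) in wild-type and 2.32 (SE 0.11, edgeR adjusted p = 1.41e-07) in Gpx4-deficient cells, and the G1 kinase Cdk6 rose by 1.44 (SE 0.21, edgeR adjusted p = 0.000529) and 1.22 (SE 0.20, edgeR adjusted p = 0.00166). Cyclin D3 (Ccnd3) fell by -1.63 (SE 0.23, edgeR adjusted p = 0.000495) and -1.19 (SE 0.23, edgeR adjusted p = 0.00393).

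Among 13 tested brakes on the cell cycle, Btg1, an antiproliferative protein of resting lymphocytes, rose and Gadd45b, a stress-induced protein, fell in stimulated Gpx4-deficient against stimulated wild-type cells, by log2 fold changes of 0.72 (SE 0.10, edgeR adjusted p = 0.00264) and -0.70 (SE 0.14, edgeR adjusted p = 0.0281). Btg1 was at 498, 489.8 and 542 CPM in stimulated wild-type and 761, 828 and 932 CPM in stimulated Gpx4-deficient libraries. Between unstimulated genotypes 0 of 13 passed, while 5 had every Gpx4-deficient library above every wild-type one and 0 below, against 8.42% and 9.89% of all genes. Btg2, a relative of Btg1 with the same role, was at 363, 359.8 and 419 CPM in unstimulated wild-type and at 651, 664 and 596 CPM in unstimulated Gpx4-deficient libraries, at 0.74 (SE 0.13, edgeR adjusted p = 0.0929) on the log2 scale. The CDK inhibitor Cdkn1a (p21) rose with stimulation in both genotypes, by 3.50 (SE 0.29, edgeR adjusted p = 8.19e-06) and 2.92 (SE 0.28, edgeR adjusted p = 2.92e-05), and the CDK4 and CDK6 inhibitor Cdkn2d fell by -2.18 (SE 0.22, edgeR adjusted p = 3.65e-05) and -2.69 (SE 0.23, edgeR adjusted p = 8.34e-06).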

How the data were processed

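RNA of 12 Treg samples (4 groups of 3) was sequenced from stranded mRNA libraries, per the labels' protocols. The deposited table holds expected counts per gene that the authors made with RSEM, per the file headers, on GRCm38, per the submitters' processing notes. For the aligner, versions and strand setting: not given in the sources used here. All 12 columns were matched by the samples' titles, and non-whole values, 14.8% to 18.1% per library, were rounded. Replicate numbers in the titles are shared between groups, library identifiers run in blocks by genotype, and the labels name no batch.

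Tests used edgeR 4.0.16 under R 4.3.3 (filterByExpr, TMM, robust quasi-likelihood F test) in one fit of 4 group means over 14827 genes with 8 residual degrees of freedom. Genes were called at a Benjamini-Hochberg adjusted p under 0.05 over all genes tested, and the SE was derived from the F statistic. CPM use the counts of the kept genes. Alternatives were DESeq2 1.42.0, limma-voom (limma 3.58.1), other size factors, no filter, a replicate block, fits of 2 groups and leaving out each library. The code was tested on simulated data. No 2 columns were identical, and the highest correlation between libraries was 0.924. Copies of members were searched with BLAST+ 2.17.0 in GENCODE M21 transcripts, which also gave the coordinates, and promoters were matched in Python 3.11.15.

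Named with every library's value were Mki67, Top2a, Cdk1 and Ccnb1, the most abundant member of each role, and every member called anywhere, and other members are given by range or where a count turned on them. From each further list, up to 3 genes with the smallest p per comparison could be named, and 1 of them is not reported here. The members and lists were chosen with earlier results of these data known, and the members near absence were described after their values were seen.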

Additional observations from a re-analysis of the deposited data

How the results depend on the processing

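No value of a named member with an unadjusted p under 0.05 changed sign in the alternatives run, and signs of the other members were counted only. The counts of members called below take both directions together. Shares of all genes called in the same fits are not given, so these counts do not show how far the members stand apart. Without stimulation, members called between genotypes went from 0 to 7 in DESeq2, 2 in limma-voom and 1 in edgeR on the 9 libraries other than stimulated Gpx4-deficient, and stayed at 0 without any 1 library. With stimulation, 2 became 4 in DESeq2 and 0 in the fit of the 2 groups, and 1 to 5 without 1 library. The DESeq2 calls included Smc4 as higher and did not include Kif11, and Mki67 was called higher without stimulated Gpx4-deficient replicate 3. For stimulation in wild-type cells, 9 became 27 in the fit of the 2 groups, 21 on the 9 libraries and 3 to 4 without 1 library. In Gpx4-deficient cells, 3 became 6 in DESeq2, 7 in limma-voom, 1 in the fit of the 2 groups and 2 to 8 without 1 library. For the interaction, 0 became 3 in DESeq2 and 0 to 3 without 1 library, and the count of negative members, 9, became 17 in limma-voom and 8 to 17 without 1 library. Members lower without overlap of libraries numbered 11 to 15 (from 8, genotype, stimulated), 35 to 40 (from 34, genotype, unstimulated), 40 to 43 (from 39, stimulation in wild-type cells) and 9 to 16 (from 9, stimulation in Gpx4-deficient cells) without 1 library, where fewer libraries overlap less by construction. The cause of the other differences was not tested. Limma-voom moved the median of all genes to -0.21 (genotype, stimulated), -0.26 (stimulation, Gpx4-deficient) and -0.14 (interaction) on the log2 scale.

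With the replicate number as a block, the count of members called was 0, 2, 5, 2 and 0 in the 2 genotype comparisons, stimulation in wild-type and in Gpx4-deficient cells, and the interaction, against 0, 2, 9, 3 and 0 without it. The calls lost were those of Bub1b, Ccna2, Tpx2 and Incenp in wild-type and of Incenp in Gpx4-deficient cells. The numbers did not pair the samples: correlations of deviations between same-numbered libraries of 2 groups ran from -0.06 to 0.03. For depth, 1 CPM stood for at least 24.6 counts, so members under 1 CPM rest on few counts. Whether depth or the number of libraries limits the calls was not tested.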
